A study of Mus musculus with 4 samples.

Results

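The genes described here are 10 genes of cell adhesion and cell shape, measured in mouse haploid embryonic stem cells (haESCs) treated with RDF or with DMSO. They form a fixed list of symbols, put together with earlier results of these data known, and all 10 were found among the 23235 gene symbols of the expression files. They are the cadherins Cdh1, Cdh2 and Cdh3, the epithelial adhesion molecule Epcam, the claudins Cldn3, Cldn4, Cldn6 and Cldn7, the surface glycoprotein Thy1, and Vim, which encodes a cytoskeletal filament protein and not a surface molecule. The cells were the androgenetic line HG165, which carries a single paternal genome, was derived from C57BL/6 mice and is the only line sequenced. Both conditions shared ES medium with 15% serum and 1000 U/ml leukemia inhibitory factor, unless the protocol for these samples differed. The DMSO group is 2 samples that received the solvent, and the RDF group is 2 samples that received Repsox, an inhibitor of TGF-β receptor signalling, DMH1, an inhibitor of BMP receptors, and Forskolin, an activator of adenylyl cyclase. The study gives doses of these chemicals for a larger mixture that contains them, but for the sequenced samples doses, treatment time and any sorting of haploid cells are not given in the sources used here. The labels describe culture on feeder cells, whereas the study's methods limit feeders to a few other assays, so the presence of feeders in these samples was not established.

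Cadherins are calcium-dependent receptors that bind the same cadherin on the neighbouring cell and are anchored to actin through catenins, and together these proteins form the adherens junction. Claudins are membrane proteins with several membrane-spanning segments that seal the tight junction and set which ions pass between epithelial cells, while Epcam is a surface glycoprotein that binds claudins, Cldn7 among them. Mouse embryonic stem cells grow as compact colonies that depend on E-cadherin, the product of Cdh1. N-cadherin, the product of Cdh2, and the filament protein vimentin are commonly used as markers of mesenchymal or neural cells, and Thy1 is a surface marker of fibroblasts and neurons.

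Expression was deposited as FPKM, a fragment count divided by transcript length and by the mapped fragments of the library. FPKM is per length, so levels can be compared between genes. Estimated depths were 9530000 to 12360000 fragments per sample. Tests ran on log2(FPKM + 1) in those 11733 genes whose mean reached 1 FPKM, with limma and Benjamini-Hochberg adjustment over all of them. An adjusted p under 0.05 was called a rise or a fall, which 13.3% of these genes reached upwards and 8.28% downwards. Of the 12 pluripotency markers examined, including Pou5f1, Nanog and Sox2, all had a mean above 1 FPKM, and their summed level was 7997 and 7931 FPKM under DMSO and 5240 and 4777 FPKM under RDF, with 5 rises and 5 falls. Most of that sum was Dppa5a, at 5493 and 5539 FPKM under DMSO and 3232 and 2839 FPKM under RDF. As these are bulk samples, fewer cells of a type and less RNA per cell cannot be told apart, and the labels do not say that the 2 samples of a condition were separate cultures, so the p-values may reflect technical spread only.

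The promoters of the claudins are shown first because Cldn6 and Cldn7 fell together while Cldn3 and Cldn4 passed the test in neither direction. RefSeq promoter windows were used for 6 of the 10 genes, Vim, Epcam and the 4 claudins, with 7 windows because Cldn7 has 2 starts. No window of Cdh1, Cdh2, Cdh3 or Thy1 was used, so their promoters were not searched. The 250 bases before each start were located as exact matches in the build NCBIM37 (mm9), the build of the files. Capitals mark the palindromic cAMP response element TGACGTCA, the site bound by CREB, and the E-box CACCTG or its reverse complement CAGGTG, the site bound by Snail and Zeb repressors. Cldn6 (chr17:23816082-23816331, plus strand), Cldn4 (chr5:135422805-135423054, minus strand) and Cldn3 (chr5:135461834-135462083, plus strand) are given whole. For Cldn7 only the 30 bases around the element before its downstream start are given (chr11:69778874-69778903, plus strand). The window of this start lies inside the annotated span of Cldn7.
Cldn6: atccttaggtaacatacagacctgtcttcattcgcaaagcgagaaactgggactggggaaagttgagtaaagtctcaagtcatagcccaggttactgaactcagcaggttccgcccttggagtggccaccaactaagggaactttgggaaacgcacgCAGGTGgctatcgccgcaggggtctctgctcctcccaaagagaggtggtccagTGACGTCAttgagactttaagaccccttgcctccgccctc
Cldn7: tgtcccttcagTGACGTCAggtcactcgac
Cldn4: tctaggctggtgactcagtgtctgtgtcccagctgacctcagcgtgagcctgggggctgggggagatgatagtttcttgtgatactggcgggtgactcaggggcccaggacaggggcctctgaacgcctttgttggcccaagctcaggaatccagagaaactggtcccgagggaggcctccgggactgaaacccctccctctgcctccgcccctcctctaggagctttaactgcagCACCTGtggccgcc
Cldn3: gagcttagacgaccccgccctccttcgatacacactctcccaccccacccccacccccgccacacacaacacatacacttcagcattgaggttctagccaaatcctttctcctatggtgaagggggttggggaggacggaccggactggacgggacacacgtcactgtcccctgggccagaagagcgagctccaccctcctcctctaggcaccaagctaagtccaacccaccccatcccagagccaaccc
In the Cldn6 promoter the TGACGTCA element starts 40 bases before the transcription start, and in the downstream Cldn7 promoter it starts 38 bases before it. The element was in these 2 windows, and 1.56% of all 32536 distinct RefSeq windows of the same length hold it. None of the other 5 windows held it. Among those 5 are the windows of Vim and Epcam, which fell too, and of the upstream Cldn7 start. Cdh3 and Thy1, which also fell, had no window to search. FPKM per gene do not show which of the 2 Cldn7 starts these cells used. Claudins outside the 10 genes were not searched. The E-box was in 1 place in the windows of Cldn6 and Cldn4 and in 2 places in those of Epcam and of the downstream Cldn7 start, against 17.3% of all windows with at least 1. The GC box GGGCGG, searched on both strands like the other motifs, was in 5 of the 7 windows and in 33.0% of all windows, and the Smad-type sequence CAGACA was in that of Cldn4 and in 17.0% of all windows. These matches describe the letters of the windows and are not evidence of binding.

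Claudin transcripts were dominated by Cldn4 in both conditions, and with RDF treatment Cldn6 and Cldn7 fell to less than 0.6 times their DMSO level. Cldn6, which is known as a claudin of embryonic epithelia, lies on chromosome 17 from 23816332 to 23819413. It had 35.4 and 37.7 FPKM under DMSO and 18.8 and 22.8 FPKM under RDF. Both RDF values were thus well below both DMSO values. Cldn6 differed by -0.79 on the log2 scale (standard error 0.099, limma adjusted p = 0.00507), and the ratio of its group means was 0.569.

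Cldn7, a claudin of many epithelia that forms a complex with Epcam, lies on chromosome 11 from 69778281 to 69781387. It had 60.0 and 70.7 FPKM with DMSO and 37.5 and 38.1 FPKM with RDF. Its conditions did not overlap either, although its DMSO samples were further apart than its RDF samples. Cldn7 differed by -0.77 on the log2 scale (standard error 0.085, limma adjusted p = 0.00360), nearly the same size as that of Cldn6.

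Cldn4, which lies on chromosome 5 from 135420996 to 135422804 and encodes a claudin of epithelia such as those of kidney and gut, was the highest of the 10 genes in every sample. It had 216 and 244 FPKM under DMSO and 233 and 232 FPKM under RDF. The RDF values fell between the DMSO values. Its log2 fold change was 0.02 (95% interval -0.16 to 0.19, adjusted p = 0.868 from limma), and it turned to -0.014 under median-ratio scaling and to -0.07 without DMSO replicate 1.

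Cldn3 is the neighbour of Cldn4, 39279 bases away on the opposite strand, and encodes a closely related epithelial claudin. It had 18.1 and 22.0 FPKM with DMSO and 21.9 and 25.1 FPKM with RDF, so that the conditions overlapped. Its log2 fold change was 0.22 (95% interval -0.05 to 0.49, adjusted p = 0.198 from limma), which leaves room for a rise of up to 0.49 on the log2 scale. Cldn3, on chromosome 5 from 135462084 to 135463342, overlaps the non-coding gene Wbscr25 on the other strand, and whether the authors' counting used strand is not stated.

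The sum over all 22 claudins in the files was 346 and 391 FPKM under DMSO and 327 and 334 FPKM under RDF. Within this sum the make-up shifted more than the sum itself. Cldn4 held 62.3% ± 0.097 (SD, n = 2) of it with DMSO and 70.3% ± 1.05 (SD, n = 2) with RDF. The share of Cldn7 was 17.7% ± 0.53 with DMSO and 11.4% ± 0.017 with RDF, and that of Cldn6 was 9.93% ± 0.41 and 6.28% ± 0.79 (SD, n = 2 each). These shares were not tested, and a share rises when the other genes of the sum fall.

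**Figure D1:**
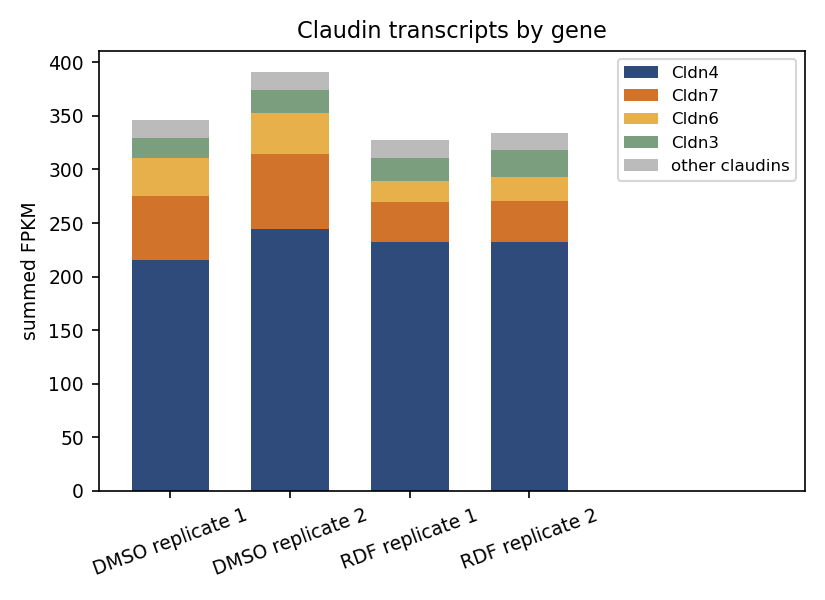
Summed FPKM of the 22 claudin genes in each of the 4 samples, stacked by gene from a baseline of 0, with the 18 claudins outside the 4 named ones as a single grey block. The Cldn4 block stays between 216 and 244 FPKM in all samples, while the Cldn7 and Cldn6 blocks are thinner in both RDF samples than in both DMSO samples.

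The other 18 claudins were low. Of these, 4 were at 0 in all samples and 4 had a mean of at least 1 FPKM. Cldn9 is the only one of the 18 that fell, from 2.03 and 2.25 FPKM with DMSO to 1.05 and 1.07 FPKM with RDF (log2 fold change -0.61, standard error 0.11, adjusted p = 0.0142 from limma). It lies on the opposite strand of chromosome 17, with a gap of 138 bases to the end of Cldn6. Fragments assigned across this short gap were not examined, and without RDF replicate 1 or 2 the adjusted p of Cldn9 was 0.0811 and 0.0831. Cldn5, Cldn12 and Cldn19 did not pass the test, with log2 fold changes of -0.27, 0.04 and 0.20.

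Among the cadherins, Cdh3 fell while the far more abundant Cdh1 did not pass the test. Cdh1, which encodes E-cadherin, lies on chromosome 8 from 109127251 to 109194146. It had 108 and 106 FPKM under DMSO and 99.4 and 107 FPKM under RDF. The higher RDF value lay between the DMSO values. Its log2 fold change was -0.05 (95% interval -0.20 to 0.09, adjusted p = 0.536 from limma), and under the 11 alternative settings it stayed between -0.11 and -0.0028.

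Cdh3 encodes P-cadherin, the placental cadherin, and lies on the same chromosome from 109034791 to 109080808, upstream of Cdh1. It had 9.12 and 10.3 FPKM with DMSO and 6.26 and 6.31 FPKM with RDF. The RDF samples lay close to each other and below both DMSO samples. Cdh3 differed by -0.55 on the log2 scale (standard error 0.086, limma adjusted p = 0.00954). The adjusted p was 0.0695 without RDF replicate 1 and 0.0724 without RDF replicate 2, with nearly the same fold change.

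Cdh2, the gene of N-cadherin on chromosome 18 from 16747386 to 16967755, was the lowest of the 10 genes in every sample. It had 1.88 and 1.94 FPKM with DMSO and 1.40 and 1.34 FPKM with RDF, which the estimated depth puts at 74.7 to 107 fragments per sample. Both RDF values were below both DMSO values, yet the adjusted p was 0.0950 (log2 fold change -0.30, 95% interval -0.55 to -0.04, from limma), and it was 0.0399 without the mean-variance trend. On the log2(FPKM + 1) scale the change of such a low gene is understated, and with a pseudocount of 0.1 its log2 fold change was -0.45. Cdh2 overlaps the non-coding gene Gm15485 on the other strand.

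The ratio of Cdh1 to Cdh2, a comparison often made between epithelial and mesenchymal cells, was 57.6 and 54.6 in the DMSO samples and 70.8 and 79.8 in the RDF samples. Both RDF ratios were the higher ones. The difference on the log2 scale was 0.42, with an exact two-sided permutation p of 0.333, which is the smallest that 2 samples against 2 can give. As Cdh1 differed little, the ratio moved mainly with the Cdh2 values. Over the 23 cadherin genes Cdh1 held 86.0% ± 0.87 of the summed FPKM with DMSO and 87.7% ± 0.38 with RDF, and Cdh3 held 7.81% ± 0.75 and 5.35% ± 0.22 (SD, n = 2 each).

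Of the other 20 cadherins, 17 had a mean under 1 FPKM and 2 were at 0 in all samples. Cdh4, which encodes R-cadherin of retina and nervous tissue, rose from 0.746 and 0.734 FPKM with DMSO to 1.32 and 1.65 FPKM with RDF (log2 fold change 0.51, standard error 0.12, adjusted p = 0.0345 from limma). It passed the filter through its RDF values, and its adjusted p was above 0.05 without the filter (0.0545) and when any 1 sample was left out (0.0728 to 0.164). Cdh15 and Cdh24, with log2 fold changes of -0.24 and 0.07, did not pass the test.

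**Figure D2:**
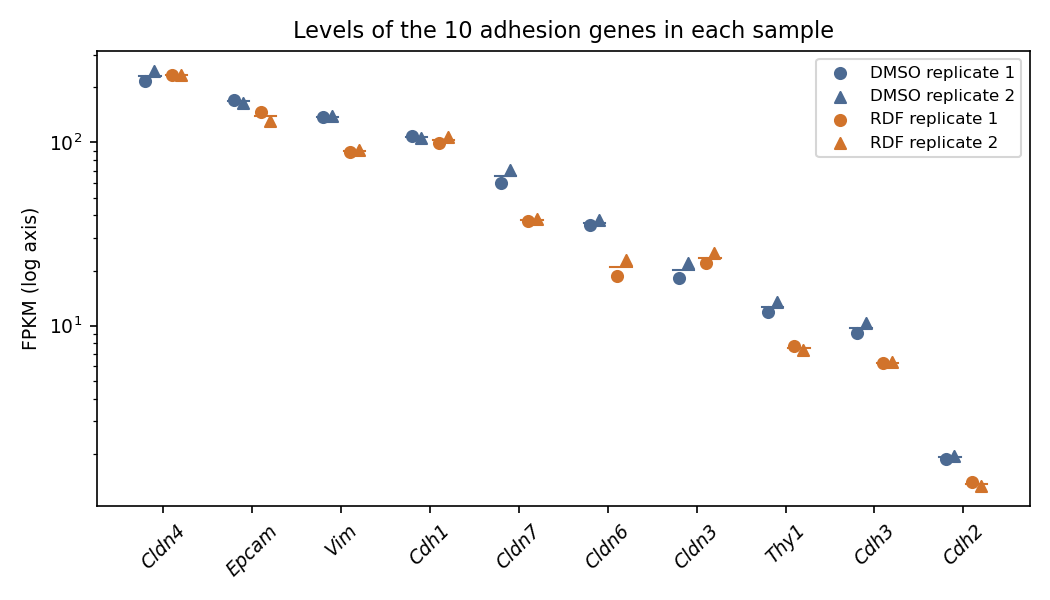
FPKM on a log axis of the 10 genes in each of the 4 samples, with DMSO in blue, RDF in orange, replicate 1 as circles, replicate 2 as triangles and short lines at the means of each condition. The genes are ordered by their DMSO mean, from Cldn4 at 216 and 244 FPKM to Cdh2 at 1.88 and 1.94 FPKM. Vim drops below Cdh1 in both RDF samples.

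Epcam, on chromosome 17 from 88035319 to 88050446, was the gene next in level to Cldn4 and fell by a small amount. It had 171 and 165 FPKM with DMSO and 147 and 131 FPKM with RDF. Its conditions did not overlap, but the RDF samples were nearly as far apart as the closest DMSO and RDF samples. Epcam differed by -0.27 on the log2 scale (standard error 0.070, limma adjusted p = 0.0403). This call was lost without the filter on low values (adjusted p = 0.0859), with quantile normalization (0.0644), without the mean-variance trend (0.0817), and when any 1 sample was left out (0.0653 to 0.182).

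Vim and Thy1 both fell, while Cdh2, the other gene of the set that is commonly read as mesenchymal, did not pass the test. Vim lies on chromosome 2 from 13495554 to 13504453. It had 138 and 139 FPKM under DMSO and 88.9 and 91.1 FPKM under RDF. The samples of each condition agreed closely, and the gap between the conditions was far larger than either spread. Vim differed by -0.62 on the log2 scale (standard error 0.051, limma adjusted p = 0.00164), with the smallest standard error of the 10 genes.

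Thy1, which encodes a surface glycoprotein held by a lipid anchor, lies on chromosome 9 from 43851467 to 43856662. It had 11.8 and 13.5 FPKM with DMSO and 7.75 and 7.40 FPKM with RDF. Again both RDF values lay below both DMSO values. Thy1 differed by -0.67 on the log2 scale (standard error 0.087, limma adjusted p = 0.00591), and the adjusted p was 0.0598 without RDF replicate 2.

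Fibroblast markers moved beside Vim and Thy1, but in both directions. The summed level of the 12 markers, which include none of the 10 genes, was 31.8 and 31.4 FPKM under DMSO and 25.5 and 24.6 FPKM under RDF. Of the 12, 7 were tested, 3 fell and 1 rose, where 8.28% of all genes tested fell and 13.3% rose. The collagen genes Col1a1 and Col1a2 fell, with Col1a1 at 10.5 and 10.4 FPKM with DMSO and 2.62 and 2.17 FPKM with RDF (log2 fold change -1.76, adjusted p = 0.000577 from limma). Postn, the gene of a matrix protein, fell as well (log2 fold change -1.71, adjusted p = 0.00164), whereas Dcn, the gene of the matrix proteoglycan decorin, rose from 1.74 and 1.40 FPKM to 6.56 and 7.51 FPKM (log2 fold change 1.65, adjusted p = 0.00112). Dcn and Postn are named after their values were seen, and Postn was below 1 FPKM in both RDF samples. None of the 12 was at 0 in all samples, 5 had a mean under 1 FPKM, and Fap was at 0 in 1 sample of each condition. The part of fibroblasts in the fall of Vim and Thy1 was not tested.

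Markers of the trophectoderm and the primitive endoderm, early lineages that express epithelial junction genes, were detected at low to middle levels. Of the trophectoderm markers Ascl2, Tead4 and Krt7 were the highest, with means over the 4 samples of 17.0, 14.2 and 8.84 FPKM, chosen after their values were seen. The 10 trophectoderm markers summed to 48.0 and 46.6 FPKM with DMSO and to 58.0 and 59.4 FPKM with RDF. By limma 3 of the 7 tested rose and 0 fell, where 13.3% and 8.28% of all genes tested did. With an unadjusted p under 0.05, 4 were higher and 1 lower, where 22.5% and 15.5% of all genes tested were. Gata3, 1 of the 3 that rose by limma, passed the filter only through its RDF values. The 10 primitive endoderm markers summed to 16.1 and 15.7 FPKM with DMSO and to 17.3 and 18.6 FPKM with RDF. Of these 10, 7 had a mean under 1 FPKM and 3 were tested, with 1 rise and 0 falls, beside the same shares of 13.3% and 8.28%. Neither list had a gene at 0 in all samples, and their part in the results was not tested.

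Counted over the 10 genes, 6 fell (Cldn6, Cldn7, Thy1, Vim, Cdh3 and Epcam), 4 did not pass the test, and 0 rose by limma. At an unadjusted p under 0.05, 7 were lower and 0 higher, against 15.5% and 22.5% of all genes tested. All 10 passed the filter on low values. Against this, 8.28% of all genes tested fell. The median log2 fold change of the 10 genes was -0.42, beside 0.03 for all genes tested. Without RDF replicate 2 only 3 of the 10 were called, namely Cldn6, Cldn7 and Vim, and without RDF replicate 1 there were 4. Both RDF values were below both DMSO values for 7 of the 10, which held for 28.5% of all genes tested, and above both for 0 of the 10, against 37.1%. The genes were chosen with earlier results for Cldn6 and Thy1 known, and no test was made over the set.

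**Figure D3:**
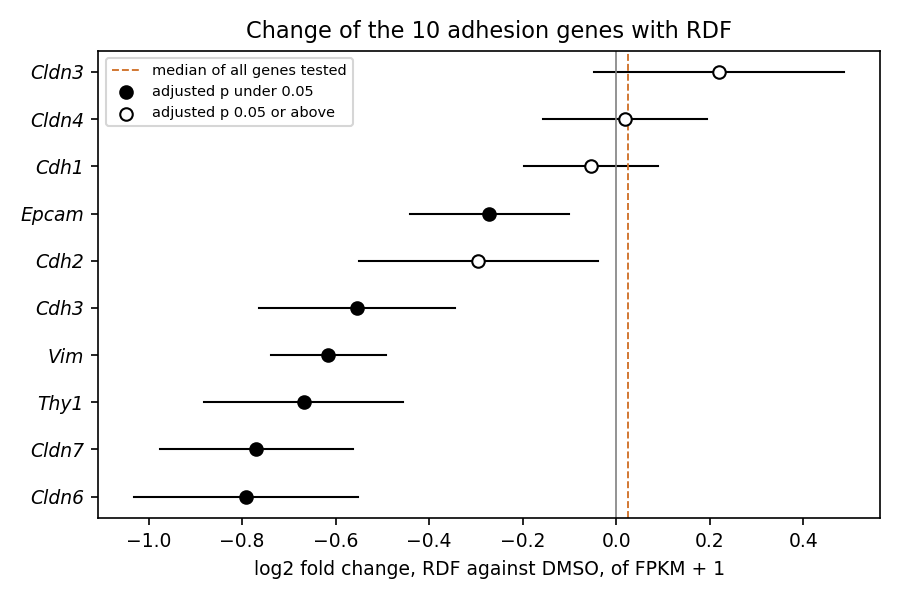
Log2 fold change of FPKM + 1, RDF against DMSO, of each of the 10 genes with its 95% interval from limma as a bar, filled circles for an adjusted p under 0.05 and open circles otherwise. The dashed line is the median of all 11733 genes tested, at 0.03. The 6 filled circles lie between -0.79 for Cldn6 and -0.27 for Epcam, and the intervals of Cldn3, Cldn4 and Cdh1 include 0.

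The order of the levels changed in 2 places. With DMSO it was Cldn4, Epcam, Vim, Cdh1, Cldn7, Cldn6, Cldn3, Thy1, Cdh3 and Cdh2 from high to low, and no neighbours in this order overlapped between samples. With RDF, Cdh1 stood above Vim and Cldn3 above Cldn6. The values of Cdh1 (99.4 and 107 FPKM) and Vim (88.9 and 91.1 FPKM) did not overlap in RDF, but those of Cldn3 (21.9 and 25.1 FPKM) and Cldn6 (18.8 and 22.8 FPKM) did. By its mean over the 4 samples Cdh1 stood above 92.1% of all genes tested, with Vim, Epcam and Cldn4 higher still, whereas Cdh2 stood above 8.63% of them.

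The genes that work with these 10 were examined in 7 lists of 114 genes, of which 72 were tested. Of these 72, 10 rose, 10 fell and 52 did not pass the test, with a median log2 fold change of 0.02. Over all genes tested 13.3% rose and 8.28% fell, the shares to set beside these counts and those of each list. Of the 10 that rose, Cdh4, Zeb1 and Prrx1 passed the filter only through their RDF values, and with a minimum of 5 FPKM 5 rose and 9 fell. Without RDF replicate 1 only 2 rose and 3 fell, and without RDF replicate 2 only 3 rose and 2 fell. In the adherens junction and desmosome list, 15 of 19 genes were tested, 3 rose and 2 fell, and the median was 0.01. At an unadjusted p under 0.05, 6 of them were higher and 4 lower, against 22.5% and 15.5% of all genes tested. Of the catenins, Ctnna1, Ctnnb1 and Ctnnd1 did not pass the test, and Jup fell. Ctnnb1, which encodes β-catenin, had 232 and 225 FPKM with DMSO and 227 and 235 FPKM with RDF (log2 fold change 0.014, adjusted p = 0.867 from limma), and the difference turned to -0.019 with median-ratio scaling. Ctnnd1, the gene of p120-catenin, differed by 0.012 on the log2 scale, or -0.020 with median-ratio scaling, and Ctnna1, the gene of α-catenin, by -0.19. The adjusted p of Ctnna1 was 0.0545 unscaled and 0.0346 with median-ratio scaling.

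Jup encodes plakoglobin, the catenin that adherens junctions and desmosomes share, and had 20.4 and 17.8 FPKM with DMSO and 7.04 and 7.30 FPKM with RDF. Its RDF values were less than 0.5 times either DMSO value. Jup differed by -1.29 on the log2 scale (standard error 0.085, limma adjusted p = 0.000947), the largest fall of the 72 genes. Perp, the gene of a desmosome-associated membrane protein, fell too (log2 fold change -0.35, adjusted p = 0.00950).

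The genes of the list that rose were the nectins Pvrl1 and Pvrl2, immunoglobulin-type receptors that join cells beside cadherins, and the desmosomal cadherin Dsg2. Pvrl2 had 76.7 and 81.4 FPKM with DMSO and 116 and 104 FPKM with RDF (log2 fold change 0.47, adjusted p = 0.00842 from limma). The log2 fold change was 0.66 for Pvrl1 (adjusted p = 0.0103) and 0.41 for Dsg2 (adjusted p = 0.00960). Without RDF replicate 1 the adjusted p was 0.0574 for Pvrl1, 0.0612 for Pvrl2, 0.0558 for Dsg2 and 0.0726 for Perp, and without RDF replicate 2 it was 0.0812, 0.0755 and 0.0598 for Pvrl1, Dsg2 and Perp.

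Of the 21 tight junction and polarity genes, 19 were tested, and the median log2 fold change was 0.01. By limma 2 rose and 3 fell, against 13.3% and 8.28% of all genes tested. At an unadjusted p under 0.05, 3 were higher and 3 lower, against 22.5% and 15.5%. The scaffold gene Tjp1, whose product links claudins to actin, had 14.9 and 14.7 FPKM with DMSO and 13.8 and 16.0 FPKM with RDF. The conditions overlapped for Tjp1 (log2 fold change 0.0084, adjusted p = 0.954 from limma, -0.023 with median-ratio and -0.040 with quantile scaling) and for Ocln, the gene of occludin (log2 fold change -0.05, adjusted p = 0.851).

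F11r, which encodes the junctional adhesion molecule JAM-A, fell from 19.3 and 20.2 FPKM to 14.4 and 15.0 FPKM (log2 fold change -0.40, adjusted p = 0.0106 from limma). The apical polarity gene Crb3 fell by 0.45 on the log2 scale (adjusted p = 0.0132), as did its partner Inadl, now named Patj, by 0.32 (adjusted p = 0.0396). Pard6b, of the Par polarity complex, rose from 14.7 and 15.4 FPKM to 22.4 and 25.0 FPKM (log2 fold change 0.62, adjusted p = 0.00477), and Cxadr, the gene of a junctional receptor, rose by 0.41 (adjusted p = 0.0359). Without RDF replicate 1 or 2 the adjusted p of F11r, Crb3, Inadl and Cxadr lay between 0.0589 and 0.167, and those of Inadl and Cxadr were also above 0.05 without DMSO replicate 1 (0.123 and 0.109) and without the filter (0.0862 and 0.0871). That of Inadl was 0.0684 without the mean-variance trend, and that of Cxadr was 0.0656 with quantile normalization.

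Of the 15 epithelial regulators, 14 were tested, and the median log2 fold change was -0.18. By limma 2 rose and 3 fell, against 13.3% and 8.28% of all genes tested. At an unadjusted p under 0.05, 3 were higher and 7 lower, against 22.5% and 15.5%. Elf3, the gene of an epithelial ETS factor, rose from 157 and 148 FPKM to 220 and 220 FPKM (log2 fold change 0.53, adjusted p = 0.00320 from limma).

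Ap1m2, which encodes an adaptor subunit for sorting to the basolateral membrane, fell from 25.9 and 26.0 FPKM to 17.6 and 15.8 FPKM (log2 fold change -0.61, adjusted p = 0.00428). Esrp1, the gene of an epithelial splicing regulator, fell by 0.44 (adjusted p = 0.0272), and Spint2, the gene of a membrane protease inhibitor, by 0.22 (adjusted p = 0.0374) on the log2 scale. The adjusted p of Spint2 was above 0.05 when any 1 sample was left out (0.0631 to 0.192), without the filter (0.0653), without the trend (0.0814) and with quantile normalization (0.0656), and that of Esrp1 without the filter (0.0708), DMSO replicate 2 (0.0937) or RDF replicate 1 or 2 (0.137 and 0.0969). Grhl2, an activator of Cdh1 and claudin genes, had a log2 fold change of 0.26 and an adjusted p of 0.0999.

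Of the 11 mesenchymal transition factors, 8 were tested. By limma 2 rose and 0 fell, against 13.3% and 8.28% of all genes tested. With an unadjusted p under 0.05, 3 were higher and 1 lower, against 22.5% and 15.5%. Snai1, the most abundant of the classical repressors of Cdh1, had 17.0 and 22.3 FPKM with DMSO and 12.9 and 16.4 FPKM with RDF. Both RDF values were lower, but the DMSO samples were wide apart (log2 fold change -0.40, adjusted p = 0.118 from limma, and 0.0344 without DMSO replicate 1). Zeb1, another repressor of Cdh1, rose from 0.625 and 0.781 FPKM to 1.81 and 1.64 FPKM (log2 fold change 0.68, adjusted p = 0.0133 from limma). The mesenchymal factor Prrx1 rose from 0.671 and 0.624 FPKM to 1.77 and 1.54 FPKM (log2 fold change 0.69, adjusted p = 0.0124 from limma). With a pseudocount of 0.1 the log2 fold changes of Zeb1 and Prrx1 were 1.19 and 1.23. Both were near the filter, which their RDF values carried them over, and without RDF replicate 1 or 2 their adjusted p lay between 0.0693 and 0.0886. Twist1 did not pass the test (log2 fold change 0.13, adjusted p = 0.306). Snai2 and Zeb2 were below the filter, with Snai2 at 0.274 to 0.962 FPKM and Zeb2 at 0.0387 to 0.24 FPKM over the 4 samples.

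Of the 10 intermediate filament genes other than Vim, 9 were tested. By limma 1 fell and 0 rose, against 8.28% and 13.3% of all genes tested. With an unadjusted p under 0.05, 1 was lower and 2 were higher, against 15.5% and 22.5%. Krt19, a keratin of simple epithelia, fell from 98.1 and 101 FPKM to 77.5 and 71.9 FPKM (log2 fold change -0.41, adjusted p = 0.00788), and its adjusted p was 0.0678 without RDF replicate 2. Krt8 and Krt18, the partner keratins of early epithelia, did not pass the test, with log2 fold changes of -0.06 and 0.15. That of Krt8 was 0.0041 without RDF replicate 2.

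**Figure D4:**
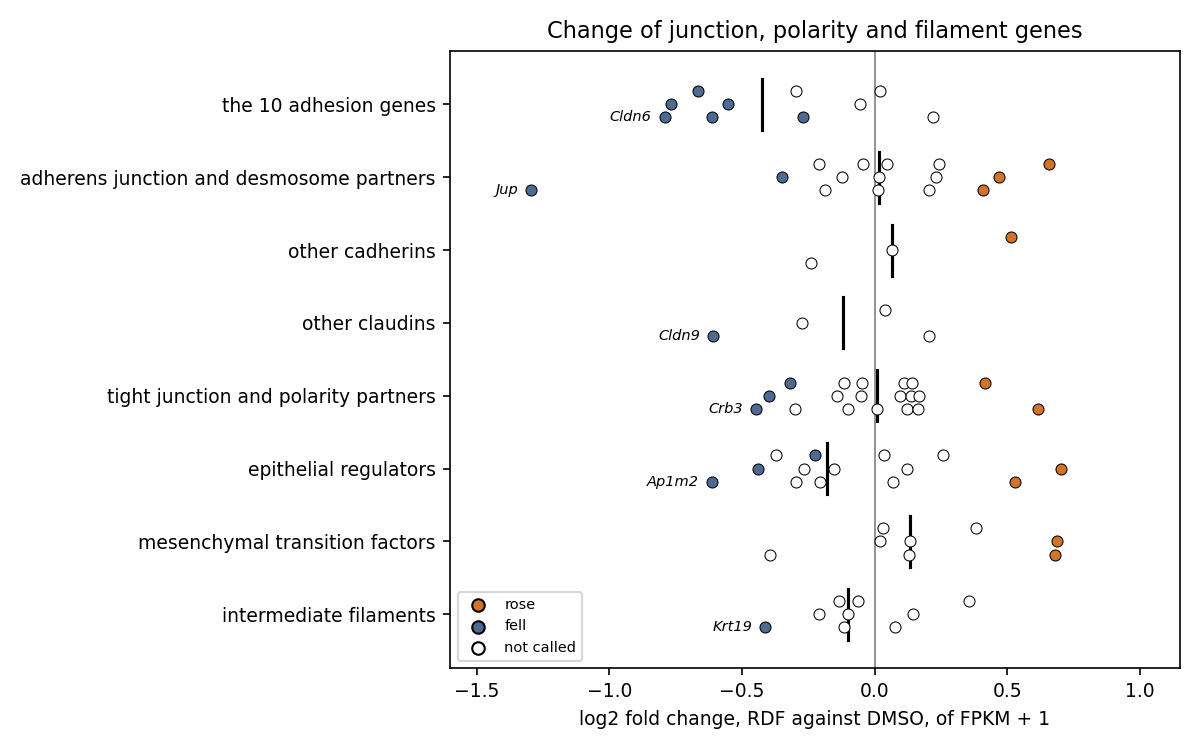
Log2 fold change of FPKM + 1, RDF against DMSO, of the tested genes among the 10 adhesion genes and in each of 7 lists, with orange for genes that rose, blue for genes that fell, white for genes that did not pass the test and a black line at the median of each list. The 10 adhesion genes have their median at -0.42, the lists have theirs between -0.18 and 0.13, and Jup lies furthest to the left at -1.29.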

How the data were processed

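Stranded mRNA libraries, 2 per condition, started from 150 ng RNA each. The submitters' processing notes name TopHat2 2.0.14, Bowtie2 2.1.0, Cufflinks 2.2.1 and build mm9, and the methods name the UCSC annotation. The authors deposited 1 table of FPKM per sample. Program parameters and scaling beyond FPKM are not given in the sources used here. FPKM hold no counts. Depth was estimated from the steps in low values of genes with a single transcript of at least 1500 bases. At the depth chosen, 39.5% to 43.1% of these values were whole fragments to a tolerance of 0.1, against 20% for an even spread. The depth was chosen to bring these values near whole fragments, so the share is no separate check of it. Fragments per gene use the longest GENCODE transcript in NCBIM37 and are approximate, and depth limits precision for counting error only.

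Samples were grouped by title. Values were compared as log2(FPKM + 1) over genes whose mean reached 1 FPKM, with limma 3.58.1 in R 4.3.3 (lmFit, eBayes with trend, no replicate block), tested on simulated data. Alternatives were another pseudocount, filter, scaling and variance model, a replicate block, and each sample left out. The members and lists were chosen with earlier results of these data known. Named genes are the 10 members, 17 partner and marker genes fixed by name, and up to 3 largest rises and falls per partner list. The values of 1 gene chosen by this rule are not reported here. Of the list symbols, 6 were matched under older names (Mllt4, Pvrl1, Pvrl2, Pvrl3, Mpp5, Inadl). Standard deviations are over the 2 samples of a condition.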

Additional observations from a re-analysis of the deposited data

How the results depend on the processing

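Of the 6 genes that fell, Cldn6, Cldn7 and Vim kept their direction and an adjusted p under 0.05 under all 11 alternatives. The number of the 10 genes called as falls was 5 or 6 under the 7 alternatives with all 4 samples and 3 to 5 when 1 sample was left out, and the number called as rises was 0 throughout. Cdh1, Cldn3 and Cldn4 were called under none. Over all genes, 1561 rose and 972 fell. Without the filter on low values 942 rose and 606 fell, and with 1 sample left out 253 to 1121 rose and 195 to 731 fell. The lowest counts were without RDF replicate 2, and without RDF replicate 1 358 rose and 235 fell. Leaving out a sample leaves 1 sample in its condition, which is assumed to vary like the other condition, and leaves fewer samples to estimate the spread. Over the partner lists, 10 rose and 10 fell. With a minimum of 5 FPKM 5 rose, since fewer genes were tested, and with 1 sample left out 2 to 10 rose and 2 to 9 fell. Directions that turned were those of small differences. With median-ratio scaling the log2 fold change was -0.014 for Cldn4, -0.019 for Ctnnb1, -0.020 for Ctnnd1 and -0.023 for Tjp1, and with quantile normalization it was -0.040 for Tjp1. With 1 sample left out it ran from -0.070 to 0.11 for Cldn4, from -0.0094 to 0.038 for Ctnnb1, from -0.064 to 0.089 for Ctnnd1, from -0.095 to 0.11 for Tjp1, from -0.26 to 0.17 for Ocln and from -0.13 to 0.0041 for Krt8. The median log2 fold change of all genes was 0.026 in the main setting, -0.0036 with median-ratio scaling and -0.0022 with quantile normalization. The cause of the turns was not tested. Of 109 comparisons of the 10 genes with their alternatives, 96 kept direction and side of the threshold. The log2 difference in the Cdh1 to Cdh2 ratio was 0.24 with a pseudocount of 1 and 0.34 to 0.51 with 1 sample left out.

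With the replicate number as a block, 1651 genes rose and 1066 fell. Across genes, samples sharing a number deviated together with a Pearson r of 0.134, and nothing in the labels makes the numbers pairs. The block changed no call of the 10 genes, and Snai1 had an adjusted p of 0.0134 with it. Depth limits Cdh2 most, with 74.7 to 107 estimated fragments per sample.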
